A study of Rattus norvegicus with 42 samples.

Results

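Retinal transcripts of rats given nanoceria and damaging light were compared with those of rats given the light alone. Nanoceria are cerium oxide nanoparticles that can take up reactive oxygen species. The comparison rests on 12 of the 31 libraries analysed, 5 of nanoceria plus light and 7 of light damage, and covers all 18094 genes that passed a filter on low counts, of 32623 in the table. Libraries were assigned by their labels, not by any measured value.

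Both groups were adult rats exposed to light of 15000 lux for 24 h. The nanoceria plus light rats also received 1 mM nanoceria injected into the vitreous of the eye, whereas the light damage rats are labelled with light only. The injection and the particles therefore cannot be told apart in this comparison, and the values of 5 vehicle plus light libraries are given beside it. The other groups were untreated controls (5 libraries), vehicle without light (5) and nanoceria without light (4). Strain, sex, and the times of injection and tissue collection are not given in the labels. RNA came from whole dissected retina, so fewer cells of a type and less RNA per cell cannot be told apart.

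As background, intense light bleaches the visual pigment and kills rod photoreceptors. Müller glia, the radial support cells of the retina, and microglia, its resident macrophages, respond with stress proteins, cytokines and chemokines that draw in blood monocytes. The factors LIF and FGF2 protect photoreceptors in that setting. Antioxidants are studied in this model because oxidation of photoreceptor lipids accompanies the damage.

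Total counts were 25158407 to 149429413 per library in light damage and 97980166 to 120285482 in nanoceria plus light. Light damage replicate 1 was the shallowest, with a TMM scaling factor of 0.8124, and it differed from the other 6 libraries of its group by a chi-square of 1429 to 1772 per degree of freedom. Light damage replicates 4 and 7 differed by 10.5, against 132 or more for the other pairs of that group. They were kept as 2 samples because the difference exceeded sampling noise, but the labels do not exclude a shared animal. Vehicle replicates 4 and 7 differed by 4.4 and were kept in the same way. With both similar pairs summed, 7 genes were called and RT1-CE3, Tigar, Spice1 and Slc27a1 no longer passed. Nanoceria plus light replicate 2 stood apart on the second principal component (52.2, the other 4 from -25.6 to 14.6), and replicate 4 had the smallest share of reads in rod phototransduction genes (0.646%, against 1.49% to 2.75% in the other 4). Y-linked transcripts were high in 4 of 7 light damage and 3 of 5 nanoceria plus light libraries. Replicate 5 of either group had a middle level, 5.86 and 6.36 CPM, against 1.26 to 1.47 CPM in the 3 other low libraries, and without both of them edgeR called 23 genes. The rod markers that define retina were present in all 12 libraries.

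Few genes differed between nanoceria plus light and light alone. At an adjusted p under 0.05, edgeR called 5 genes higher (0.0276%) and 6 lower (0.0332%), 11 of 18094 or 0.0608%. Without a correction for multiple tests, 1223 genes had p under 0.05, 679 of them higher and 544 lower. The median log2 fold change of all genes was 0.0031, and the median size of the change was 0.0957. The 6 lower genes were 3 class I major histocompatibility genes (RT1-CE16_2, RT1-CE6 and RT1-CE3), Ghdc, the neuropeptide gene Nts and the sugar phosphatase gene Tigar. The 5 higher genes were Vps50, Spice1, Slc27a1, Timd4 and the uncharacterised LOC102549714. The number called was 5 without light damage replicate 7, 6 without nanoceria plus light replicate 1 and 47 without nanoceria plus light replicate 4. DESeq2 called 89 genes and limma-voom 37, each including all 11. With the size factors of DESeq2 edgeR called 3 genes higher and 6 lower. Scaled by library size only, it called 3 higher and 5 lower.

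The class I genes present peptides at the cell surface to T cells, and the rat carries many similar copies in the RT1-C/E region. Their RefSeq promoters, 250 bases before to 50 after the annotated start, are shown because the 3 genes moved together. Most of each window lies before the start, so its likeness does not show how reads of the transcripts are assigned. The likeness of the transcripts was not tested. Capitals mark GGGGATTCC, the core of a known class I enhancer site for NF-kB and related factors, and CCAAT, each searched on both strands. The sequences are those of the GRCr8 build, matched by symbol, and the counts were made on the earlier rn6 build, where 2 genes carry the name RT1-CE16. The promoter shown may therefore belong to either copy.
RT1-CE16, chr20:3265394-3265693, minus strand: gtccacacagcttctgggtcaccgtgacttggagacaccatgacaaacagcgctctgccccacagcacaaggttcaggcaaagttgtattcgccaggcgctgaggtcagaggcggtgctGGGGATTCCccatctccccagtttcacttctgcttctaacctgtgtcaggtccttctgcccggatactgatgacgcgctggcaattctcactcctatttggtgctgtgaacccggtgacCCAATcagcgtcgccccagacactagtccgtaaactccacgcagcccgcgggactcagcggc
RT1-CE6, chr20:3466553-3466852, minus strand: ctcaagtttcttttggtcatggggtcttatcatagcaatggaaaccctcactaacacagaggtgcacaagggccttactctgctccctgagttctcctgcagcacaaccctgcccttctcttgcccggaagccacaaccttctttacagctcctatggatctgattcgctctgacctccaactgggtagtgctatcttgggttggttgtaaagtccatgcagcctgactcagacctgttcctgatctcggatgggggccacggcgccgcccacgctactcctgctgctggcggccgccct
RT1-CE3, chr20:3525109-3525408, minus strand: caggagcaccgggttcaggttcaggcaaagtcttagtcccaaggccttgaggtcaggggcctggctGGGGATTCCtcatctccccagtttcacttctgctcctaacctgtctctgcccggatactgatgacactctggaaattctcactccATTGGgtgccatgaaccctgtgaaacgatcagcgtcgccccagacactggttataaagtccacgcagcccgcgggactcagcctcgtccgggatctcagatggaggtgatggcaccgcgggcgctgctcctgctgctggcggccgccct
In global alignments, RT1-CE16 and RT1-CE3 shared 207 of 300 bases, RT1-CE6 and RT1-CE3 shared 204, and RT1-CE16 and RT1-CE6 shared 187. GGGGATTCC occurred in the windows of RT1-CE16 and RT1-CE3 and in 0.281% of 33469 promoters of the same length. CCAAT occurred in the same pair and in 37.5% of all promoters. Neither string was found in the RT1-CE6 window. The promoters of the other class I copies were not compared on their own. Whether either string goes with the lower levels was therefore not tested.

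RT1-CE16_2 (ENSRNOG00000059770) had a lowest, median and highest level of 1.66, 5.9 and 6.83 CPM (read counts scaled with TMM to a common library total) in light damage. In the nanoceria plus light libraries the levels were 1.03, 1.05, 1.28, 1.29 and 1.12 CPM. All 5 lay below all 7, and the lowest light damage value was that of replicate 1. The log2 fold change was -2.20 ± 0.31 (SE; edgeR adjusted p = 0.00089).

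RT1-CE6 (ENSRNOG00000061639) had 2.55, 3.85 and 4.59 CPM as lowest, median and highest in light damage. The nanoceria plus light libraries had 0.86, 1.07, 0.904, 1.33 and 1.49 CPM, again without overlap. RT1-CE6 differed by a log2 fold change of -1.68 ± 0.24 (edgeR adjusted p = 0.000992).

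RT1-CE3 (ENSRNOG00000031607) had 1.27, 1.98 and 2.17 CPM in light damage and 0.628, 0.125, 0.498, 0.332 and 0.545 CPM in nanoceria plus light, also without overlap. Its log2 fold change was -2.08 ± 0.39 (edgeR adjusted p = 0.025), and it was called in 8 of the 12 fits that left out 1 library. It did not pass with the similar pairs summed (edgeR adjusted p = 0.0666), with only the libraries compared (0.0699) or with the replicate block (0.0678).

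For RT1-CE6 and RT1-CE3 the light damage group also stood apart from every other library of the series. RT1-CE6 lay between 0.678 and 1.66 CPM in the other 24 libraries, and RT1-CE3 between 0.125 and 0.917 CPM. RT1-CE16_2 lay between 0.587 and 1.94 CPM in those 24, a range that held light damage replicate 1 as well. The lower values of nanoceria plus light were thus at the level of the 14 libraries that had no light, which reached 1.58 CPM for RT1-CE6.

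Other class I copies, chosen after their values were seen, did not all lie on the same side. RT1-CE16_1, the other copy named RT1-CE16, lay higher, at 11.5 to 29.6 CPM in light damage and 26.2 to 84.5 CPM in nanoceria plus light (1.13 ± 0.47, edgeR adjusted p = 0.605). RT1-CE7 had 36.9 to 71.1 CPM in light damage and 27.2 to 33.9 CPM in nanoceria plus light (-0.81 ± 0.17, edgeR adjusted p = 0.0661). RT1-CE9-ps1, a pseudogene by its name, had 7.99 to 15.5 CPM and 22.8 to 34 CPM (1.21 ± 0.26, edgeR adjusted p = 0.0661). RT1-CE10 had 18.9 to 34.3 CPM and 45.2 to 65 CPM (0.83 ± 0.22, edgeR adjusted p = 0.189). RT1-CE7, RT1-CE9-ps1 and RT1-CE10 did not pass in edgeR with all libraries and no block, whereas DESeq2 called all 3 and limma-voom called RT1-CE7 and RT1-CE9-ps1. With the replicate block edgeR called RT1-CE10 (adjusted p = 0.0408) and RT1-CE9-ps1 (0.0328). It also called RT1-CE9-ps1 without nanoceria plus light replicate 4 (0.0465) and RT1-CE7 without light damage replicate 2 (0.0325). The classical class I gene RT1-A2 was at -0.70 ± 0.21 (edgeR adjusted p = 0.29), RT1-CE4 at -0.50 ± 0.19, RT1-CE5 at -0.25 ± 0.15, RT1-A1 at -0.11 ± 0.19 and RT1-CE1 at 0.01 ± 0.23. Reads from near-identical copies can be split between them, so the level of any 1 copy is uncertain, and the part of read assignment in these differences was not tested.

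Ghdc (ENSRNOG00000018906), whose product carries a GH3 domain, had the smallest p of all genes. Its lowest, median and highest levels were 8.47, 10.5 and 11.9 CPM in light damage, and the nanoceria plus light libraries had 3.58, 3.8, 3.77, 4.18 and 4.67 CPM. The groups did not overlap, and the log2 fold change was -1.36 ± 0.18 (edgeR adjusted p = 0.00089). Vehicle plus light lay at 4.07 to 7.51 CPM, below light damage and overlapping nanoceria plus light, and the 14 libraries without light lay at 6.23 to 12.8 CPM. Ghdc was called in all 12 fits that left out 1 library.

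Nts (ENSRNOG00000004179), the precursor of neurotensin, had 0.875, 0.961 and 1.81 CPM in light damage, where the highest value was that of replicate 1. The nanoceria plus light libraries had 0.348, 0.453, 0.618, 0.269 and 0.515 CPM, all below the light damage range. This gave a log2 fold change of -1.28 ± 0.24 (edgeR adjusted p = 0.0243). Nts was called in 9 of 12 fits that left out 1 library and did not pass with only the libraries compared (edgeR adjusted p = 0.191).

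Tigar (ENSRNOG00000051816), a p53 target that slows glycolysis and favours the pentose phosphate pathway, had 22.7, 24.2 and 27.2 CPM in light damage. The nanoceria plus light libraries had 14.2, 16.7, 20.8, 16.7 and 21.5 CPM, all below. Its log2 fold change was -0.43 ± 0.09 (edgeR adjusted p = 0.0388), and it was called in 3 of 12 fits that left out 1 library. It did not pass with the similar pairs summed (edgeR adjusted p = 0.108) or with only the libraries compared (0.295).

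Vps50 (ENSRNOG00000009894), a subunit of a tethering complex for endosomal recycling, had 26.8, 30.2 and 32.4 CPM in light damage and 42.1, 40.5, 34.7, 36.8 and 45 CPM in nanoceria plus light. All 5 lay above all 7, and the log2 fold change was 0.40 ± 0.06 (edgeR adjusted p = 0.00389). The 14 libraries without light had 24.3 to 32.1 CPM. Vps50 was called in all 12 fits that left out 1 library, and did not pass with only the libraries compared (edgeR adjusted p = 0.135).

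Spice1 (ENSRNOG00000039024), a protein of centrioles and the spindle, had 8.37, 8.92 and 9.62 CPM in light damage and 12, 10.9, 11.6, 10.9 and 11.9 CPM in nanoceria plus light. The groups did not overlap, and the log2 fold change was 0.36 ± 0.07 (edgeR adjusted p = 0.0388). The 24 libraries of the other groups together reached from 9.57 to 14.6 CPM, so the light damage libraries were at the low end.

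Slc27a1 (ENSRNOG00000018170), a transporter that brings long-chain fatty acids into cells, had 75.5, 86.9 and 102 CPM in light damage. The nanoceria plus light libraries had 115, 137, 119, 96.5 and 121 CPM, and replicate 4 fell within the light damage range. Slc27a1 thus had a log2 fold change of 0.44 ± 0.09 (edgeR adjusted p = 0.0388). Spice1 was called in 2 and Slc27a1 in 3 of the 12 fits that left out 1 library. Neither passed with the similar pairs summed (edgeR adjusted p = 0.108 for both) or with only the libraries compared (0.0938 for Spice1 and 0.295 for Slc27a1). Slc27a1 also did not pass with the replicate block (edgeR adjusted p = 0.0769).

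Timd4 (ENSRNOG00000038894), a receptor with which macrophages bind phosphatidylserine on dying cells, was close to the detection limit. It had 0, 0.036 and 0.0652 CPM in light damage and 0.502, 0.135, 0.36, 0.261 and 0.0681 CPM in nanoceria plus light. The groups just failed to overlap, and the log2 fold change was 2.90 ± 0.51 (edgeR adjusted p = 0.0143). The 14 libraries without light lay at 0.023 to 0.635 CPM. Timd4 was called in 10 of 12 fits that left out 1 library. With only the libraries compared it did not pass the low-count filter and was not tested. Its test thus rests on a filter that used the other groups as well.

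LOC102549714 (ENSRNOG00000059338) had the largest called difference. It had 0.00652, 0.039 and 0.147 CPM in light damage and 5.47, 5.18, 2.68, 4.32 and 2.27 CPM in nanoceria plus light, a log2 fold change of 6.46 ± 1.04 (edgeR adjusted p = 0.00389). All 5 libraries given vehicle and light exceeded 1 CPM. Of those injected without light, 3 of 4 nanoceria and 2 of 5 vehicle libraries did so, and none of the 12 control and light damage libraries did.

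**Figure D1:**
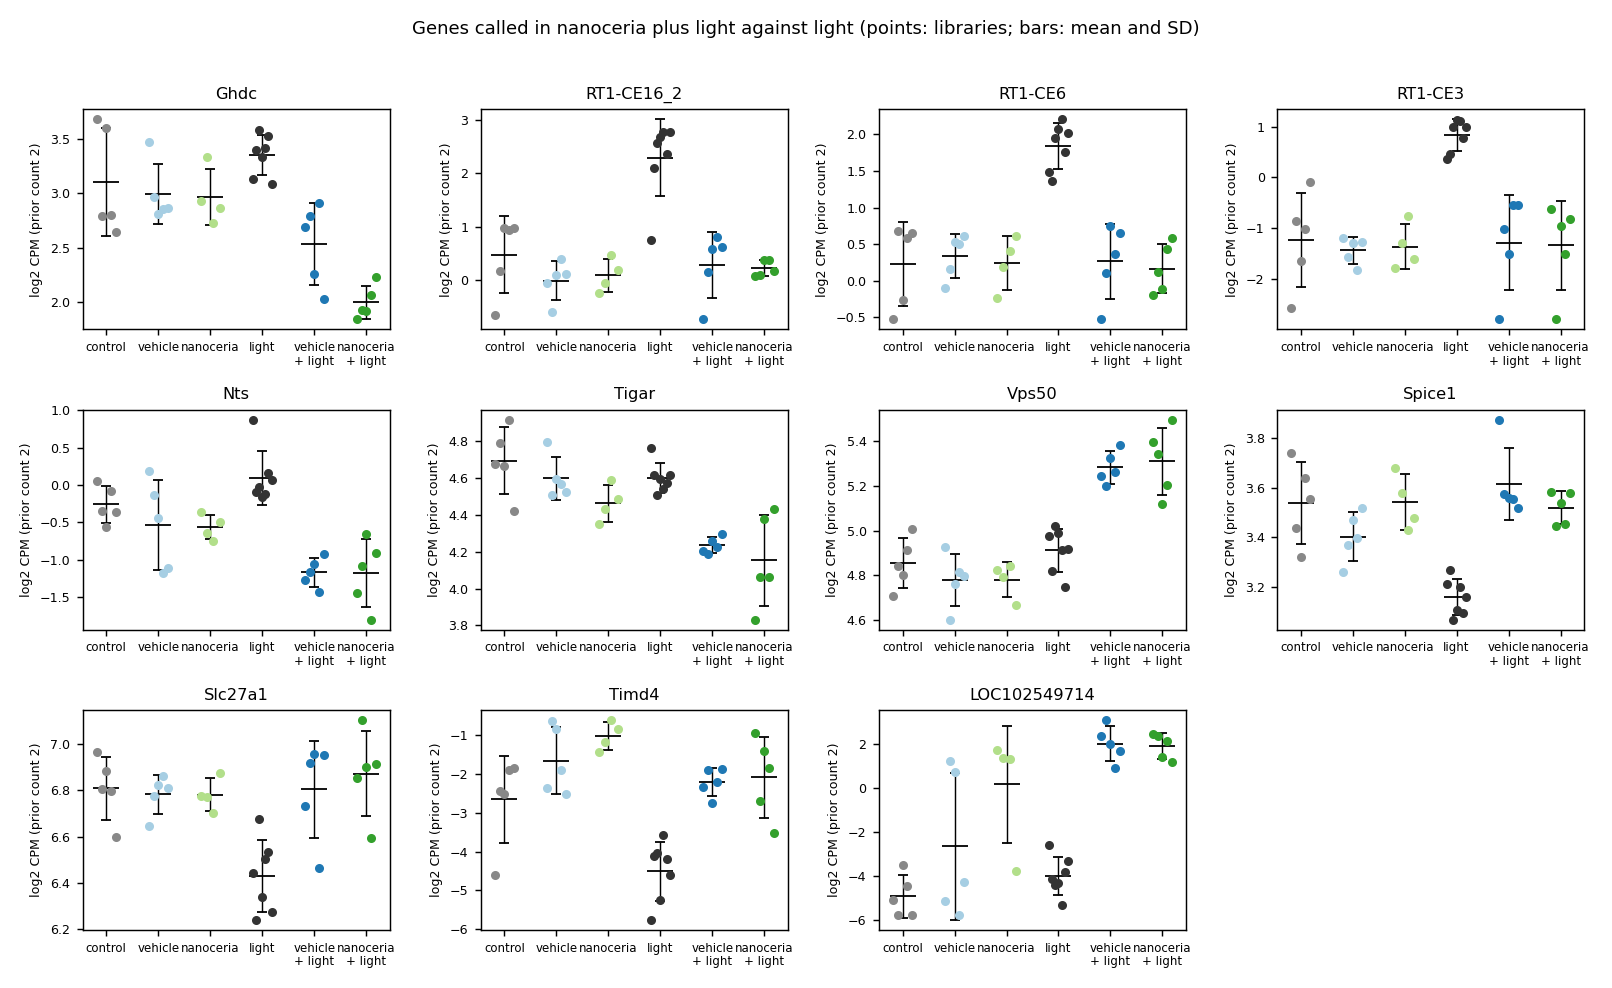
Level of the 11 called genes in every library, as log2 CPM with a prior count of 2 (y axis), by group (x axis); points are libraries and bars the mean and SD. The 3 RT1 genes are high in light damage, whereas the nanoceria plus light and vehicle plus light libraries lie near the groups without light. For all 11 genes the mean of vehicle plus light lies on the same side of light damage as that of nanoceria plus light.

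The gene lists drawn up for retina, light damage and nanoparticles held 762 distinct genes that were tested, and edgeR called 0 of them, against 0.0608% of all genes. At an unadjusted p under 0.05 there were 70 (40 higher, 30 lower), or 9.19% of the list genes, against 6.76% of all genes. DESeq2 called 5 (Ccl2, Ccl3 and Pde6c lower, Fgf2 higher, and Hsp90aa1, which had counts in 5 of 31 libraries) and limma-voom 2 (Ccl2 and Ccl3). The list values below are therefore descriptions of level, and none of them passed in edgeR. The share of all genes with an unadjusted p under 0.05 was 3.75% for higher and 3.01% for lower values.

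**Figure D2:**
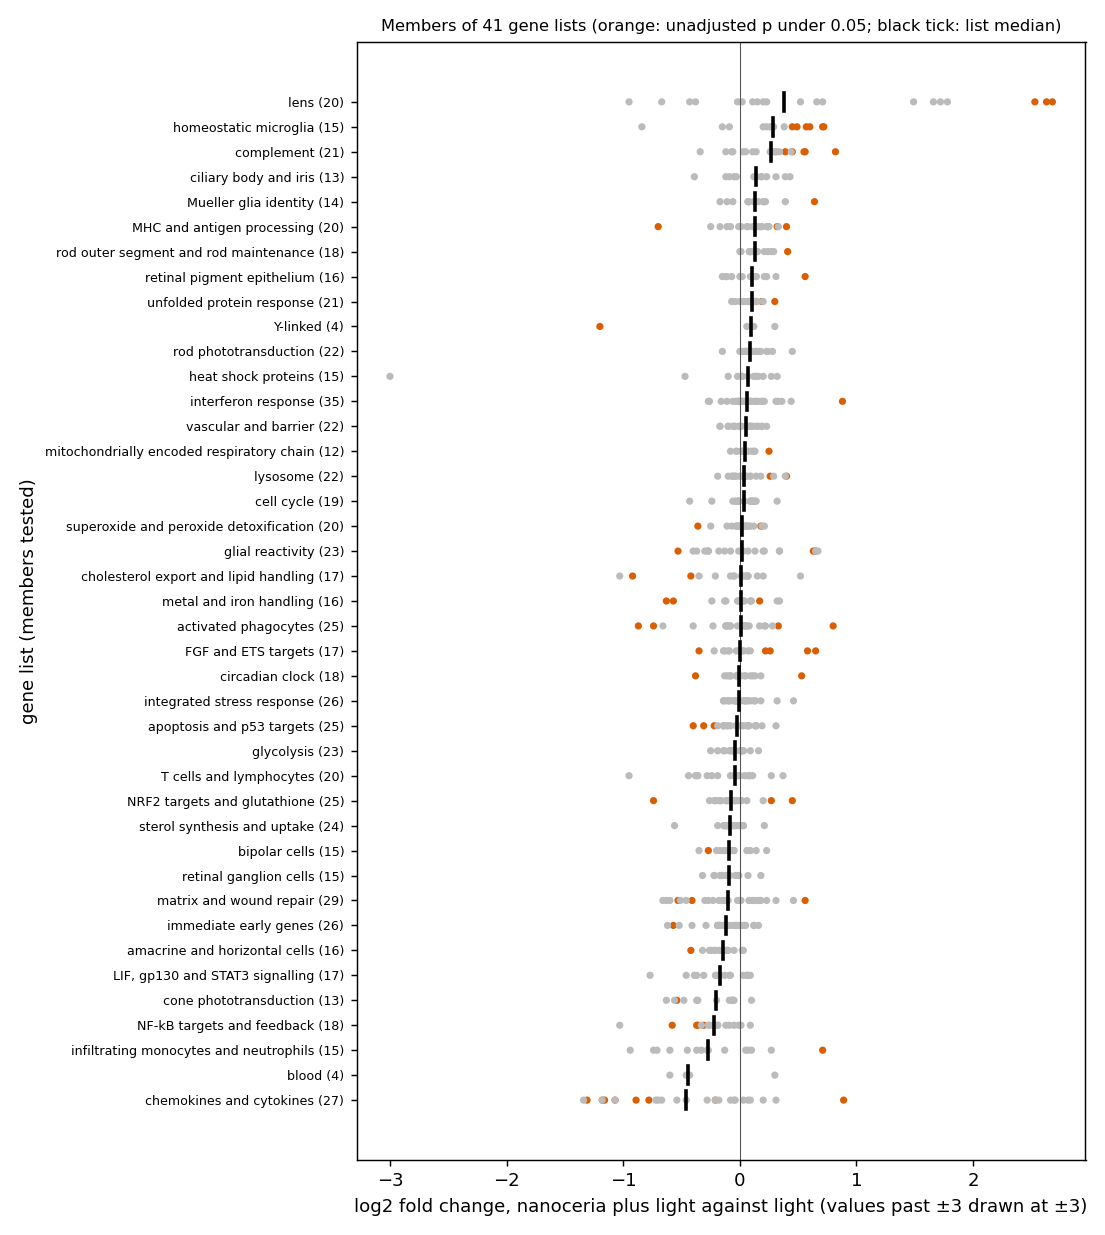
Log2 fold change of nanoceria plus light against light (x axis) for each tested member of 41 gene lists (y axis); orange points have an unadjusted p under 0.05 and black ticks are list medians. Chemokines and cytokines have the lowest median (-0.46), lens the highest (0.38), and homeostatic microglia (0.29) and complement (0.27) come next; Hsp90aa1 is the point drawn at the left edge.

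Chemokines and cytokines lay lower in nanoceria plus light than in light alone. Of 27 tested members 21 were below 0, with a median log2 fold change of -0.46 beside 0.003 for all genes, and 7 lower and 1 higher member had an unadjusted p under 0.05. Ccl2, which attracts monocytes through CCR2, had 57.4, 90.3 and 140 CPM as lowest, median and highest in light damage. In nanoceria plus light it had 14.1, 19, 42.4, 64.2 and 43.3 CPM, so that 1 of the 5 reached into the light damage range. The log2 fold change was -1.31 ± 0.35 (edgeR adjusted p = 0.197; 0.0267 in DESeq2 and 0.0392 in limma-voom).

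Ccl3, a chemokine of activated microglia and macrophages, had 6.44, 8.81 and 14.5 CPM in light damage and 2.92, 2.47, 4.59, 5.78 and 7.19 CPM in nanoceria plus light. Again 1 of the 5 lay inside the light damage range. Ccl3 had a log2 fold change of -1.16 ± 0.28 (edgeR adjusted p = 0.131; 0.0069 in DESeq2 and 0.0379 in limma-voom). Both chemokines were near 1 CPM or less in untreated control, where Ccl2 reached 1.21 and Ccl3 0.259 CPM. Some further members were chosen after their values were seen. Ccl7 was at -1.18 ± 0.38, the cytokine Il1b at -0.89 ± 0.33 and the interferon-induced chemokine Cxcl11 at -0.78 ± 0.29. Cxcl10, another T-cell attractant, was at -0.67 ± 0.44, and Cxcl13, a B-cell attractant, was the 1 higher member (0.89 ± 0.34).

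Targets of the inflammatory factor NF-kB lay on the same side, 16 of 18 below 0 (median -0.22), 4 of them with an unadjusted p under 0.05. Icam1, an endothelial and glial adhesion molecule for leukocytes, had 65.8, 77.6 and 93.1 CPM in light damage and 42.3, 42.2, 68.6, 53.7 and 60.5 CPM in nanoceria plus light. Its log2 fold change was -0.58 ± 0.16 (edgeR adjusted p = 0.242). Sod2, the mitochondrial superoxide dismutase and an NF-kB target, was at -0.36 ± 0.14. With vehicle plus light against light Sod2 was also at -0.36. The feedback inhibitor Nfkbia, chosen after its value was seen, was at -0.31 ± 0.13.

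The immediate early genes had 20 of 26 members below 0 (median -0.12), 1 with an unadjusted p under 0.05. That member, the stress-induced Ier3, was at -0.57 ± 0.16 (edgeR adjusted p = 0.25), and the AP-1 subunit Fosl1 at -0.52 ± 0.28. The cytokine Lif and its pathway showed little: 12 of 17 members of the LIF, gp130 and STAT3 list were below 0 (median -0.17), none with an unadjusted p under 0.05 in either direction. Lif itself was at -0.46 ± 0.38 and the feedback inhibitor Socs3 at 0.03 ± 0.21. The signal kinase Jak2 was at -0.21 ± 0.11, and the kinase Pim1, a STAT3 target, at -0.39 ± 0.21.

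Glial genes lay mixed. In the glial reactivity list 12 of 23 members were above 0 (median 0.02), 2 higher and 1 lower at an unadjusted p under 0.05. Fgf2, which photoreceptors and Müller glia raise under stress and which protects photoreceptors, had 4.8, 5.15 and 6.66 CPM in light damage. In nanoceria plus light it had 8.35, 9.34, 8.05, 8.24 and 9.54 CPM, all above. The log2 fold change was 0.65 ± 0.15, which did not pass in edgeR (adjusted p = 0.106) and passed in DESeq2 (0.0074).

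A2m, a protease inhibitor of plasma and reactive glia, was at 0.63 ± 0.18 (edgeR adjusted p = 0.242). Gfap, the intermediate filament of reactive glia, had 120 to 341 CPM in light damage and 216 to 489 CPM in nanoceria plus light (0.67 ± 0.46), and 3 of the 5 lay inside the light damage range. Edn2, an endothelin of stressed photoreceptors, was at 0.65 ± 0.34. Timp1, a metalloproteinase inhibitor of the same list, was lower (-0.53 ± 0.21, unadjusted p = 0.0163 in edgeR).

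The Müller glia identity list had 11 of 14 members above 0 (median 0.13). Sox9, a transcription factor of these cells, had 21.5, 23.6 and 26.3 CPM in light damage and 22.5, 23.6, 41.6, 61.8 and 38 CPM in nanoceria plus light. Replicates 1 and 2 lay inside the light damage range and the other 3 above it, and the log2 fold change was 0.64 ± 0.17 (edgeR adjusted p = 0.196). Gpr37, a receptor of glia, was at 0.39 ± 0.20. Among targets of FGF signalling through ETS factors the median was 0.001, with 4 higher and 1 lower at an unadjusted p under 0.05. The inhibitor Spred1 was the lower one, at -0.35 ± 0.10 (edgeR adjusted p = 0.258), and Etv4, an ETS factor, was at -0.01 ± 0.13.

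Markers of resting microglia lay higher in nanoceria plus light than in light alone, 12 of 15 above 0 with a median of 0.29, and 6 higher members had an unadjusted p under 0.05. With vehicle plus light against light, which shares the light damage libraries, 12 of 15 were also above 0 (median 0.34), and nanoceria against vehicle under light had a median of -0.07. P2ry12, a nucleotide receptor that activated microglia lose, had 1.05, 1.4 and 1.57 CPM in light damage and 2.38, 4.09, 1.91, 1.75 and 1.39 CPM in nanoceria plus light. All but replicate 5 lay above the light damage range, and the log2 fold change was 0.72 ± 0.23 (edgeR adjusted p = 0.305). With vehicle plus light it was 0.98. Its relative P2ry13 was at 0.71 ± 0.22, and the microglial markers Tmem119 and Trem2, chosen after their values were seen, at 0.45 ± 0.19 and 0.60 ± 0.28. Aif1, which all microglia carry, was at 0.20 ± 0.18.

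Complement genes had 17 of 21 members above 0 (median 0.27), 5 of them with an unadjusted p under 0.05 and none lower. Cd55, an inhibitor on cell surfaces, had 5.82, 11.2 and 17.5 CPM in light damage and 30.8, 8.41, 18.9, 19.6 and 18.6 CPM in nanoceria plus light. Replicate 2 alone lay inside the light damage range, and the log2 fold change was 0.82 ± 0.27 (edgeR adjusted p = 0.36). The C1q chains, which microglia make and which were chosen after their values were seen, were at 0.55 ± 0.21 (C1qa), 0.56 ± 0.19 (C1qb) and 0.45 ± 0.20 (C1qc). C3, the central component, was at 0.29 ± 0.43.

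The summed level of the 15 microglial markers was 226 to 345 CPM in light damage and 288 to 411 CPM in nanoceria plus light, so the ranges overlapped. Genes of activated phagocytes had a median of 0.006, with 2 higher and 2 lower at an unadjusted p under 0.05. Lyz2, the lysozyme of macrophages, was at -0.87 ± 0.27 (edgeR adjusted p = 0.292), whereas the Fc receptor Fcgr3a was at 0.80 ± 0.29. Markers of infiltrating monocytes and neutrophils had a median of -0.28, with 1 higher member, F13a1 (0.71 ± 0.32), the A subunit of clotting factor XIII. The T cell and lymphocyte list had a median of -0.04 and no member with an unadjusted p under 0.05; its summed level was 19.3 to 32.8 CPM and 19.6 to 39.1 CPM.

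Interferon-response genes had a median of 0.06, with 1 higher member, the GTPase gene Gbp1 (0.88 ± 0.40). In the list of antigen processing 3 members were higher and 1 lower at an unadjusted p under 0.05. Of these, the protease Ctss was at 0.40 ± 0.13 and RT1-A2 was the lower one.

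Rod genes showed no call in either direction. Of 22 rod phototransduction genes 20 were above 0 (median 0.09), none with an unadjusted p under 0.05, and neither DESeq2 nor limma-voom called a member. Gnat1, the alpha subunit of rod transducin, had 689, 1040 and 2360 CPM in light damage and 783, 1530, 1870, 303 and 2360 CPM in nanoceria plus light. Replicate 4 lay below the light damage range and the other 4 inside it. The log2 fold change was 0.06 ± 0.36 (edgeR adjusted p = 0.991), and its sign changed in several fits that left out 1 library. Untreated controls had 7540 to 15700 CPM.

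With all libraries, edgeR called none of the other rod genes named here. Gngt1, the gamma subunit of the same transducin, was at 0.45 ± 0.33, and Pde6a, a subunit of the rod phosphodiesterase, at 0.23 ± 0.15. Reep6, a rod protein for membrane trafficking, was at 0.13 ± 0.27 with a sign that also changed, and the nuclear receptor Esrrb, which keeps rods alive, at 0.29 ± 0.38. Among genes of the outer segment and rod upkeep 17 of 18 were above 0 (median 0.13). Impg2, of the matrix between photoreceptors, was at 0.41 ± 0.18 (0.60 and edgeR adjusted p = 0.0465 without nanoceria plus light replicate 4), and Abca4, the retinoid flippase of the discs, at 0.24 ± 0.18. The members of a list share their libraries. The share of reads in rod phototransduction genes was 1.32% to 2.43% in light damage and 0.646% to 2.75% in nanoceria plus light.

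Cone genes lay on the other side, 12 of 13 below 0 with a median of -0.20 and 1 with an unadjusted p under 0.05. That gene, Pde6c, the cone phosphodiesterase, had 23.1, 28.6 and 36.2 CPM in light damage and 18.7, 18.3, 21.8, 16.3 and 21.5 CPM in nanoceria plus light. All 5 lay below all 7, and the log2 fold change was -0.54 ± 0.13 (edgeR adjusted p = 0.111; DESeq2 0.0122). The middle-wave cone opsin Opn1mw was at -0.63 ± 0.34 and the short-wave opsin Opn1sw at -0.36 ± 0.35. Untreated controls had 12.3 to 17.7 CPM of Pde6c, below the light damage range. Opn1mw had means of 28.9 ± 6.94 CPM in control (SD, n = 5), 18.8 ± 4.05 in light damage (n = 7) and 12.2 ± 8.69 in nanoceria plus light (n = 5). With vehicle plus light against light, which shares the light damage libraries, 11 of the 13 cone genes were also below 0 (median -0.225). Nanoceria against vehicle under light had a cone median of 0.035.

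Markers of inner retinal neurons were below 0 by small amounts, 11 of 15 for bipolar cells (median -0.09), 14 of 16 for amacrine and horizontal cells (-0.15) and 13 of 15 for ganglion cells (-0.09). Prox1, a factor of horizontal and amacrine cells, was the lowest by p (-0.42 ± 0.15, edgeR adjusted p = 0.463).

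Because nanoceria are given as an antioxidant, the genes of oxidative defence were of interest. Of 25 tested NRF2 targets and glutathione genes 18 were below 0 (median -0.08), 2 higher and 1 lower at an unadjusted p under 0.05. Hmox1, the haem oxygenase that NRF2 raises, had 71.7, 147 and 243 CPM in light damage and 30.1, 43.8, 147, 141 and 57.2 CPM in nanoceria plus light. Of the 5 values 3 lay below the light damage range, and the log2 fold change was -0.74 ± 0.33 (edgeR adjusted p = 0.673). With vehicle plus light against light, which shares the light damage libraries, it was -0.69. Nanoceria against vehicle under light had -0.05 for Hmox1. The medians of the whole list in these comparisons were -0.11 and 0.03. The exporter Abcc1 was at 0.27 ± 0.10 and the glutathione transferase Gsta1 at 0.45 ± 0.16.

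Genes that remove superoxide and peroxide had a median of 0.02, with Sesn1, a stress-induced sestrin, at 0.18 ± 0.06. The metal and iron list had a median of 0.01. In it the haemoglobin and haem scavengers Hp and Hpx were at -0.63 ± 0.22 and -0.57 ± 0.20, and Mt2A, a metallothionein, at -0.13 ± 0.28. The integrated stress response list had a median of -0.01 and no member with an unadjusted p under 0.05; Atf4, Atf3 and Asns were at -0.12 ± 0.08, 0.12 ± 0.23 and 0.18 ± 0.11. The unfolded protein response list had 19 of 21 above 0 (median 0.10), led by the protein-folding genes Pdia4 (0.30 ± 0.11) and Hsp90b1 (0.19 ± 0.09). Of the apoptosis and p53 genes, 3 were lower at an unadjusted p under 0.05, among them Pmaip1 (-0.31 ± 0.10), which promotes mitochondrial cell death. Clock genes had a median near 0, with Per2 at 0.53 ± 0.16 (0.22 without nanoceria plus light replicate 1) and Cry2 at -0.38 ± 0.12.

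Genes of the lens, which can be carried along in dissection, had the highest list median (0.38) and 3 higher members at an unadjusted p under 0.05. The crystallin gene Crygb had 1.08, 22.7 and 34.4 CPM in light damage and 31.3, 78.1, 4.08, 557 and 16 CPM in nanoceria plus light (2.68 ± 1.19), so that replicate 4 alone was far above the rest. The summed lens level was 353 to 8310 CPM in light damage and 559 to 9750 CPM in nanoceria plus light. The part of carried-over tissue in the results above was not tested.

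**Figure D3:**
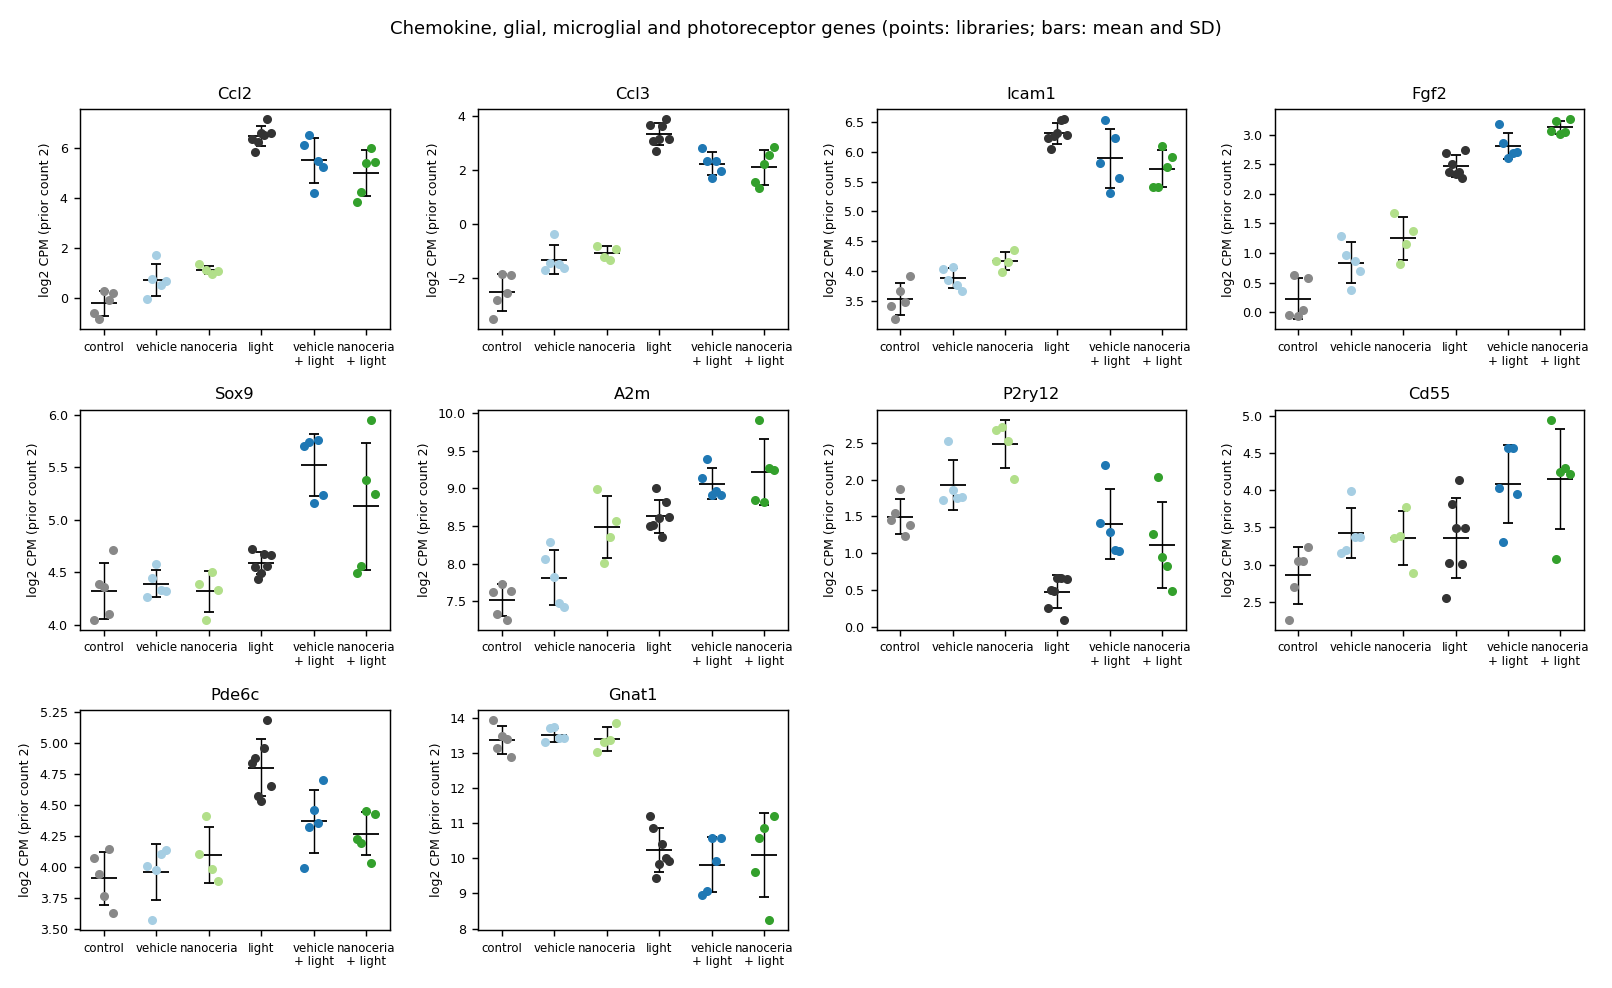
Level in every library, as log2 CPM with a prior count of 2 (y axis), by group (x axis), of genes of inflammation, glia, microglia and photoreceptors; points are libraries and bars the mean and SD. For Ccl2 and Ccl3 most nanoceria plus light libraries lie below light damage and far above the groups without light, Fgf2 lies above light damage in all 5, and 4 of the 5 lie inside the light damage range for Gnat1.

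A light response score placed each library on the response seen in other animals. It was the mean log2 CPM of 435 genes raised at least 2-fold minus that of 241 genes lowered at least 2-fold by light in vehicle-injected rats (2.4% and 1.33% of genes tested, edgeR adjusted p under 0.05). The lowest, median and highest scores were -0.709, 0.316 and 0.434 in light damage. The nanoceria plus light libraries had -0.099, -0.632, 0.307, 0.809 and -0.339. Untreated controls lay between -3.162 and -2.271, far below both. The group means were 0.11 ± 0.42 (SD, n = 7) and 0.01 ± 0.56 (SD, n = 5), a difference of -0.10 that is smaller than either SD. The difference was 0.06 without nanoceria plus light replicate 2 and -0.30 without replicate 4.

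Gene by gene the same sets lay slightly toward the unexposed side. The 435 raised genes had a median log2 fold change of -0.08 in nanoceria plus light against light, 56.6% of them below 0, and the 241 lowered genes a median of 0.05, 39.8% below 0. For all genes the median was 0.003 and 49% were below 0. In either set edgeR called 0 genes in this comparison.

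**Figure D4:**
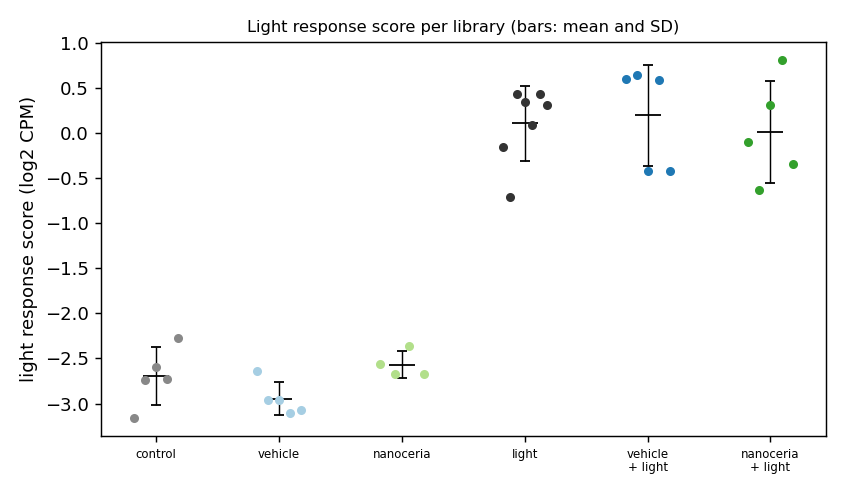
Light response score of every library (y axis, log2 CPM) by group (x axis); points are libraries and bars the mean and SD. The 5 nanoceria plus light libraries lie between -0.632 and 0.809, across the light damage range of -0.709 to 0.434, and every library without light lies below -2.2.

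The vehicle plus light libraries give the same contrast with vehicle in place of nanoceria. They share the light damage libraries with the main comparison and the nanoceria plus light libraries with the comparison against vehicle, so the values are given side by side only. Vehicle plus light against light had 22 genes called by edgeR, 11 in each direction (0.122% of genes tested). Nanoceria plus light against vehicle plus light had 0 called by edgeR (0%), 4 by DESeq2 and 0 by limma-voom. In edgeR 257 genes had an unadjusted p under 0.05. This is fewer than that threshold gives on average among 18094 genes with no difference. The 0 calls do not show that the groups are alike.

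For RT1-CE16_2 the log2 fold change against light was -2.20 with nanoceria and -2.04 with vehicle, and nanoceria against vehicle was -0.16. RT1-CE6 had -1.68, -1.55 and -0.14, and RT1-CE3 had -2.08, -2.0 and -0.09. Vps50 had 0.40, 0.37 and 0.03, LOC102549714 had 6.46, 6.65 and -0.19, and Nts had -1.28, -1.31 and 0.04. Timd4 had 2.90, 2.51 and 0.38, and Spice1 had 0.36, 0.46 and -0.10. Slc27a1 had 0.44, 0.38 and 0.07, and Tigar had -0.43, -0.37 and -0.07. These genes were chosen by the first of the 3 values, and the first and second share the light damage libraries.

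Ghdc had -1.36 with nanoceria, -0.79 with vehicle (edgeR adjusted p = 0.0748) and -0.57 for nanoceria against vehicle. Ccl2 had -1.31, -0.80 and -0.52, Fgf2 had 0.65, 0.35 and 0.30, and Cxcl10 had -0.67, -0.01 and -0.65. For Ccl3 the values were -1.16, -1.10 and -0.06, for Pde6c -0.54, -0.43 and -0.11, and for Sox9 0.64, 0.95 and -0.31. Among these, Sox9 with vehicle passed in edgeR (adjusted p = 0.0093). None of the differences between nanoceria and vehicle under light passed in edgeR. Among list medians, rod phototransduction had 0.09 with nanoceria, 0.13 with vehicle and -0.02 for nanoceria against vehicle. Complement had 0.27, 0.20 and 0.08, Müller glia identity 0.13, 0.17 and -0.02, and ganglion cells -0.09, -0.14 and -0.002. Chemokines and cytokines had -0.46, -0.165 and -0.27, NF-kB targets -0.22, -0.105 and -0.07, and lens genes 0.38, 0.14 and 0.33.

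Without light, nanoceria differed from untreated control in more genes, 313 higher (1.73%) and 132 lower (0.73%), together 445 or 2.46% of genes tested. Scaled by library size only, the split was 341 to 34. Whether the nanoceria difference was the same with and without light was tested as an interaction, the difference under light minus the difference without it. The 2 differences use separate libraries. Both include the injection as well as the particles, which cannot be told apart here. EdgeR called 74 genes (0.409%), 60 with a lower (0.332%) and 14 with a higher (0.0774%) difference under light. Of the 60, 48 were called higher with nanoceria without light and 55 were below 0 under light. Of the 14, 11 were called lower without light and 12 were above 0 under light. The number called ranged from 14 (without control replicate 2) to 158 (without light damage replicate 2) when 1 library was left out.

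Among the lists, a lower difference under light was called for 4 of 27 chemokine and cytokine genes, 2 of 15 microglial and 2 of 23 glial reactivity genes, beside 0.332% of all genes. The lists of activated phagocytes, NF-kB targets, clock, metal and iron handling, and FGF and ETS targets had 1 such member each. A higher difference was called for 1 member each of the integrated stress response and the FGF and ETS lists. Chi3l1, a chitinase-like protein of reactive astrocytes and macrophages, had 17.8 to 33.9 CPM in control and 300, 153, 175 and 183 CPM in nanoceria without light. Vehicle without light had 44.7 to 135 CPM, also above control. Under light Chi3l1 had 159, 203 and 295 CPM in light damage and 177, 212, 269, 275 and 301 CPM with nanoceria. The difference was 2.76 without light and 0.13 under light, an interaction of -2.63 ± 0.40 (edgeR adjusted p = 0.00438).

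Ccl3 had 0.0689 to 0.259 CPM in control and 0.556, 0.413, 0.379 and 0.508 CPM in nanoceria without light. All 4 lay above control, as did vehicle without light at 0.291 to 0.748 CPM. Under light, in contrast, most nanoceria libraries lay below light damage. The log2 fold changes were 1.46 and -1.16, an interaction of -2.62 ± 0.47 (edgeR adjusted p = 0.0137). Tspan4, a tetraspanin, had 0.65 without light and -0.66 under light (interaction -1.31 ± 0.23, edgeR adjusted p = 0.0137). Ecscr, an endothelial surface protein, had 0.59 and -0.44 (interaction -1.02 ± 0.18, edgeR adjusted p = 0.0137). Gpr183, an oxysterol receptor that guides immune cells, had 1.20 and -0.17 (interaction -1.38 ± 0.23, edgeR adjusted p = 0.0121). These 5 genes were called in all 21 fits that left out 1 library.

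Of the other genes followed here, Ccl2 had 1.3 without light and -1.31 under light (interaction -2.62, edgeR adjusted p = 0.0294). Icam1 had 0.62 and -0.58 (-1.20, edgeR adjusted p = 0.0266), Lyz2 had 1.11 and -0.87 (-1.99, edgeR adjusted p = 0.0259), and Il17rb, a cytokine receptor, had 2.57 and 0.58 (-2.0, edgeR adjusted p = 0.0161). Cxcl11, named after its values were seen, had 2.46 and -0.78 (-3.24, edgeR adjusted p = 0.00289). Of the 11 genes called under light, Ghdc (-1.17), RT1-CE6 (-1.64) and Vps50 (0.48) were also called in the interaction. Their differences without light were -0.19, -0.04 and -0.07. The 11 genes were chosen by the difference under light, which is itself part of the interaction. The rod gene Gnat1 had an interaction of 0.05 and was not called.

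**Figure D5:**
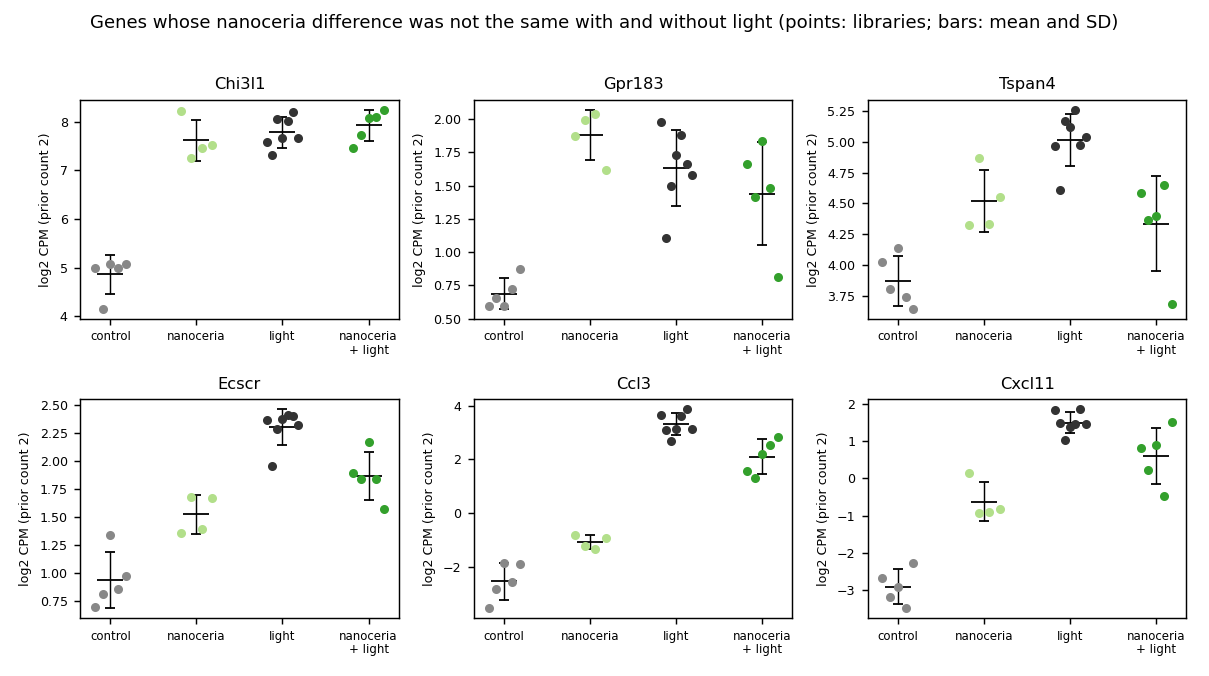
Level in every library, as log2 CPM with a prior count of 2 (y axis), of 6 genes called in the interaction, in control, nanoceria, light damage and nanoceria plus light (x axis); points are libraries and bars the mean and SD. Without light every nanoceria library lies above control, by a narrow margin for Ecscr; under light the nanoceria libraries lie at the light damage level (Chi3l1, Gpr183) or mostly below it.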

How the data were processed

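Retinal RNA was measured by polyA RNA-seq with paired-end reads. Per the submitters' processing notes, the tools were Trimmomatic 0.39, STAR 2.7.9a, featureCounts of Subread 2.0.1 and DESeq2 1.30.1, with the rn6 build. The deposited values are raw counts per gene, made by the authors. Neither annotation nor strand setting is stated in the sources used here. The table held 31 libraries, and 11 further labelled samples were not analysed here.

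Counts were tested with edgeR 4.0.16 in R 4.3.3 (quasi-likelihood, robust, TMM scaling, low-count filter filterByExpr), with all 31 libraries and 1 coefficient per group. P-values were adjusted by Benjamini-Hochberg over 18094 genes, and genes were called at an adjusted p under 0.05. CPM are TMM-scaled. Alternatives were DESeq2 1.42.0, limma-voom (limma 3.58.1), other scalings and filters, a replicate block, a sex term, summed near-identical pairs and each library left out. Counts were simulated with 200 changed genes in nanoceria plus light against light. Of these, 76.1% of 1.5-fold, 88.1% of 2-fold and 100% of 4-fold changes were called, with 8 false calls. The changed genes all had a mean log2 CPM above 1, so the rates do not cover lower genes such as RT1-CE3, Nts and Timd4. Outlying libraries and similar pairs were not simulated. The Benjamini-Hochberg cutoff is also stricter when fewer genes differ, and the data gave 11 calls beside 200 genes changed in the simulation. The simulated rates can therefore be above those of the real comparison.

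Named genes were all called genes, the 2 members of each list with the smallest p, a set of light damage genes and the 5 interaction genes with the smallest p. Members and lists were chosen with earlier results of these data known. Some named genes are not reported here. Samples are separate by their labels, and p-values measure the spread between them. For the similar pairs a shared animal is not excluded, and the p-values count their libraries as separate.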

Additional observations from a re-analysis of the deposited data

Results flagged for a closer look

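Single libraries stood far from the rest of their group in 9 of 158 sets of values examined, where chance gives about 1 in 20. Light damage replicate 1, the shallowest library, had 1.66 CPM of RT1-CE16_2 (4.29 to 6.83 in the others), 1.81 CPM of Nts (0.875 to 1.1), 27.2 CPM of Tigar (22.7 to 24.5) and 1.08 CPM of Crygb (12 to 34.4). Light damage replicate 2 had 99.4 CPM of Lyz2 (212 to 350) and 3.87 CPM of Ecscr (4.87 to 5.29). Light damage replicate 5 had 87.6 CPM of Abcc1 (102 to 113) and 8.27 CPM of Etv4 (10.3 to 11.5). Nanoceria plus light replicate 2 had 3.44 CPM of the interferon-induced exonuclease gene Isg20 (10.3 to 15.5).

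Both nanoceria differences, the one under light and the one without it, include the injection as well as the particles. They differed from each other in edgeR for 15 of the 79 genes followed, beside 0.409% of all genes. This count is set in part by selection, since 5 of the genes were chosen for the smallest p of that test and Cxcl11 after its values were seen. Many others were chosen by the difference under light, which is part of the interaction, or with earlier results of these data known. The share of all genes is therefore not a like background for this count. On the log2 scale the first minus the second was -3.24 for Cxcl11, -2.63 for Chi3l1, -2.62 for Ccl2, -2.62 for Ccl3, -2.0 for Il17rb and -1.99 for Lyz2. It was -1.64 for RT1-CE6, -1.38 for Gpr183, -1.31 for Tspan4, -1.20 for Icam1, -1.17 for Ghdc, -1.02 for Ecscr and -0.77 for Cry2. It was above 0 for Etv4 (0.83) and Vps50 (0.48). With 1 library left out, Ghdc, Etv4 and Cry2 were called in 4 of 21 fits each, RT1-CE6 in 8, Ccl2 in 11 and Vps50 in 12.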

How the results depend on the processing

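Nanoceria plus light against light had 11 calls. It had 9 with the size factors of DESeq2, 8 with library size alone, 9 without a low-count filter, 11 with a sex term, 5 with only the libraries compared, 7 with near-identical pairs summed, 89 with DESeq2 and 37 with limma-voom. Leaving out 1 library gave 5 to 47. Of 2 settings chosen after seeing the data, light damage replicate 1 left out with pairs summed gave 6, and replicate 5 of both groups left out, for their middle level of Y-linked transcripts, gave 23. Vehicle plus light against light (22) had 89 with DESeq2, 228 with limma-voom and 17 to 30 with 1 library left out. Nanoceria plus light against vehicle plus light had 4 with DESeq2 and 0 in each fit with 1 library left out. Nanoceria against control (445) had 727 with DESeq2, 1275 with limma-voom and 205 to 432 with 1 library left out. The interaction (74) had 275 with DESeq2, 47 with a sex term, 39 with pairs summed and 14 to 158 with 1 library left out. The light score difference (-0.10) ranged from -0.30 to 0.06.

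With the replicate number as a block the main comparison had 14 calls, vehicle plus light against light 18, nanoceria plus light against vehicle plus light 0, nanoceria against control 184 and the interaction 16. Same-numbered libraries of both light groups had correlations of -0.09, 0.49, -0.31, 0.30 and -0.22, and 2 of 5 correlated best with their own number. So few values of mixed sign cannot decide whether the numbers pair the samples.

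Near 0 the sign of some log2 fold changes turned. Gnat1 was -0.13 with the block, -0.01 with pairs summed and -0.22 without both replicates 5 (left-out range -0.23 to 0.32). Reep6 was -0.07 and Mt2A 0.04 without both replicates 5 (-0.08 to 0.33 and -0.46 to 0.04). Socs3 was -0.04 with limma-voom, -0.01 without light damage replicate 1 and with pairs summed, and -0.04 without both replicates 5 (-0.06 to 0.14). Etv4 was 0.01 with library size alone and 0.01 with the block (-0.12 to 0.07). The cause of these shifts was not tested. Over the named genes 1703 recomputed values kept direction and side of the threshold, 64 no longer passed, 21 newly passed and 28 turned sign. Depth limits Timd4, and LOC102549714 in light damage, where both had at most 0.147 CPM.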

Other observations

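Hsp90aa1, a cytosolic chaperone gene, had no counts in 26 of the 31 libraries. It had 313 counts in light damage replicate 2, 1 in light damage replicate 7, 245 in vehicle replicate 7, and 3035 and 3145 in vehicle plus light replicates 1 and 2.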
